A study of Mus musculus with 12 samples.

Results

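The expression of 47 genes of DNA replication and the cell cycle was examined in whole mouse embryos of 2 mutant lines. The members were taken from a fixed list, and all 47 were found by symbol among the 23420 genes of each count table. They fell into 27 genes of G1 and S phase (the replication machinery, cyclin E, E2F factors and D-type cyclins) and 20 genes of G2 and mitosis. The rule itself uses no measured value, but the list was drawn up with earlier results of these data known.

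Before S phase, D-type cyclins and then cyclin E drive the inactivation of the retinoblastoma protein and release E2F transcription factors, which turn on genes of DNA synthesis. The MCM helicase is loaded at origins by ORC, CDC6 and CDT1, is activated with CDC45 and the GINS complex, and unwinds DNA for the polymerases that the clamp PCNA holds on the template. Genes of G2 and mitosis are expressed later, and encode cyclins A and B, mitotic kinases, the spindle checkpoint and kinetochore proteins. Their timing is set largely by CHR and CCAAT promoter elements, with DREAM and MuvB complexes acting on the CHR. In the midgestation embryo these genes are most active in tissues with many cycling progenitors.

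RNA was sequenced from homogenized whole embryos at E12.5, with 1 library per embryo. The *Carm1* line, on C57BL/6, gave 3 embryos homozygous for the constitutive null allele Carm1tm1Mtb, which lacks exons 2 and 3, and 3 wild-type embryos. The *Pax3* line, a closed colony on a mixed background, gave 3 embryos homozygous for the Splotch null allele Pax3Sp2h and 3 wild-type embryos. Both lines were bred by intercrosses of heterozygous mice, no treatment is named in the labels, and neither allele is restricted to a cell type. The tests set the difference between groups against the spread between these embryos. Litters were not named in the labels, so effects of litter could not be separated.

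Total counts ranged from 17183344 to 23518692 per library, and replicate libraries correlated at 0.993 to 0.996 in log2 CPM (counts scaled to a common library size, here by TMM). *Carm1* held 69.3 to 76.2 CPM in *Carm1* KO/KO embryos and 137 to 151 CPM in their wild-type controls. *Pax3* held 18.1 to 22.4 CPM in *Pax3* Sp2H/Sp2H embryos and 24.96 to 30.9 CPM in controls. The transcript of the targeted gene was thus lower in both lines (edgeR adjusted p = 1.23e-15 for *Carm1* and 0.00142 for *Pax3*). In the *Carm1* line *Pax3* held 27.4 to 30.4 CPM in null and 20.5 to 24.2 CPM in wild-type embryos, so its level alone does not establish the Splotch genotype. Counts on Y-linked genes were at least 4447 in 1 wild-type embryo of the *Carm1* line, 1 *Pax3* Sp2H/Sp2H embryo and 2 wild-type embryos of the *Pax3* line, and at most 23 in the others. The labelled tissue, the whole embryo, was checked on markers of 7 cell types. Neural, erythroid, hepatocyte and muscle markers were all detected, while the 8 markers of trophoblast and decidua summed to at most 0.713 CPM, with *Prl8a2* and *Cts7* at 0 in every library.

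All members were expressed well above the filter on low counts, the lowest single count being 237. Per kilobase of exon, *Pcna* was the most abundant G1/S member in all 4 groups, at a mean of 147 CPM per kb in *Carm1* wild-type and 165 CPM per kb in *Pax3* wild-type embryos. *Top2a*, the topoisomerase that untangles sister chromatids, led the G2/M members at 113 and 133 CPM per kb in the same groups. The lowest G2/M level in every group was that of *Mad2l1*, a spindle checkpoint gene, between 7.11 and 8.84 CPM per kb. Its exon length, with all annotated exons joined, was 8032 nt. Replicate embryos varied little, and the median coefficient of variation over members lay between 3.12% and 5.6% in each class and group.

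The 2 classes also differed in promoter sequence, a property the list did not use. RefSeq promoter windows of 300 bases, from 250 before to 50 after the start of transcription in GRCm38.p6, were found for 38 of the 47 members (41 windows). On either strand, an E2F element (TTTCCCGC, TTTCGCGC, TTTGCCGC or TTTGGCGC) was present in 10 of 24 G1/S windows (41.7%) and in 1 of 17 G2/M windows (5.9%), beside 2.3% of all 32851 windows of this length. The CHR element TTTGAA was present in 12 of 17 G2/M windows (70.6%) and 3 of 24 G1/S windows (12.5%), beside 17.9% of all windows. The CCAAT box was found in 88.2% of G2/M and 70.8% of G1/S windows, beside 37.4% of all. These matches are descriptions of letters, and no binding was measured.

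The windows of the members with the lowest adjusted p in each class and line are printed 5′ to 3′ to set these elements beside the genes described next, with E2F, CHR and CCAAT matches in capitals. *E2f2* had 2 windows, and the one printed, chr4:136172024-136172323 on the plus strand, had TTTGGCGC at base 40 after the start. The other, chr4:136180532-136180831, starts in an intron of the GENCODE gene and held no E2F element, 1 TTTGAA and 3 CCAAT boxes. *Cenpf* had chr1:189688037-189688336 on the minus strand, with a pair of CCAAT boxes before the start and TTTGAA at base 3 after it. *Cenpe* had chr3:135212313-135212612 on the plus strand, with 1 CCAAT box and no TTTGAA in this window. *E2f1* had chr2:154569377-154569676 on the minus strand, whose start lies 466 bases inside the GENCODE gene, in an exon, and which held no match.
E2f2: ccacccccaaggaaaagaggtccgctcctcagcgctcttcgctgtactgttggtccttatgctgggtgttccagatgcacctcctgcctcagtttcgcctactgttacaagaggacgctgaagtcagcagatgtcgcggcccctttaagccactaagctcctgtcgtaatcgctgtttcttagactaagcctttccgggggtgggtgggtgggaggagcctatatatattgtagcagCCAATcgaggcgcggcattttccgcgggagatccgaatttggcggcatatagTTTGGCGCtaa
Cenpf: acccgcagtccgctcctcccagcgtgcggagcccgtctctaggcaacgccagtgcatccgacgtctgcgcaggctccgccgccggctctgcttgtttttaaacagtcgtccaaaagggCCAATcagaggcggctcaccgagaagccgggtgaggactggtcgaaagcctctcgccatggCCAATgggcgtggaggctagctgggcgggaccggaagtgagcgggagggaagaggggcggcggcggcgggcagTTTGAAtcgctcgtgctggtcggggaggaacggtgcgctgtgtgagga
Cenpe: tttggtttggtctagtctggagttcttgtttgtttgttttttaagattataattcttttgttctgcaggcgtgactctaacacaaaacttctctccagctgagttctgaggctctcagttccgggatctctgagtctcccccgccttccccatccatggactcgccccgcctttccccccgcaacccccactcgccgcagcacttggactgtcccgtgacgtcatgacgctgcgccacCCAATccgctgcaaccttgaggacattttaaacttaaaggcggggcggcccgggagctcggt
E2f1: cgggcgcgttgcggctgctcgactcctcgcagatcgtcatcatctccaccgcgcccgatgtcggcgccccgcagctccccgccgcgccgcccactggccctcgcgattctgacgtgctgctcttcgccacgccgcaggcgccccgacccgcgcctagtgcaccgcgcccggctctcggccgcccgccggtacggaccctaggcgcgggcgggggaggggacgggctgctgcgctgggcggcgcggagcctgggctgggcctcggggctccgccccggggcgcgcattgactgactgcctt

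In *Carm1* KO/KO embryos, 5 members rose and 1 fell, all by less than 1.3-fold. *E2f2* was lower, while *E2f1*, *Ccnd1*, *Mcm7*, *Cenpf* and *Bub1b* were higher. This makes 12.8% of the members, beside 13.3% of the 15811 genes tested in that line that passed the same threshold (adjusted p under 0.05, edgeR quasi-likelihood test, 5.49% higher and 7.83% lower). The share of members that passed was thus close to that of all genes. Of the 27 G1/S members 3 rose and 1 fell, with a median log2 fold change of 0.03, and of the 20 G2/M members 2 rose and none fell, with a median of 0.05. The median over all genes tested was 0.0014. At an unadjusted p under 0.05, 13 members were counted (27.7%, 9 G1/S and 4 G2/M), beside 26.4% of all genes.

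**Figure D1:**
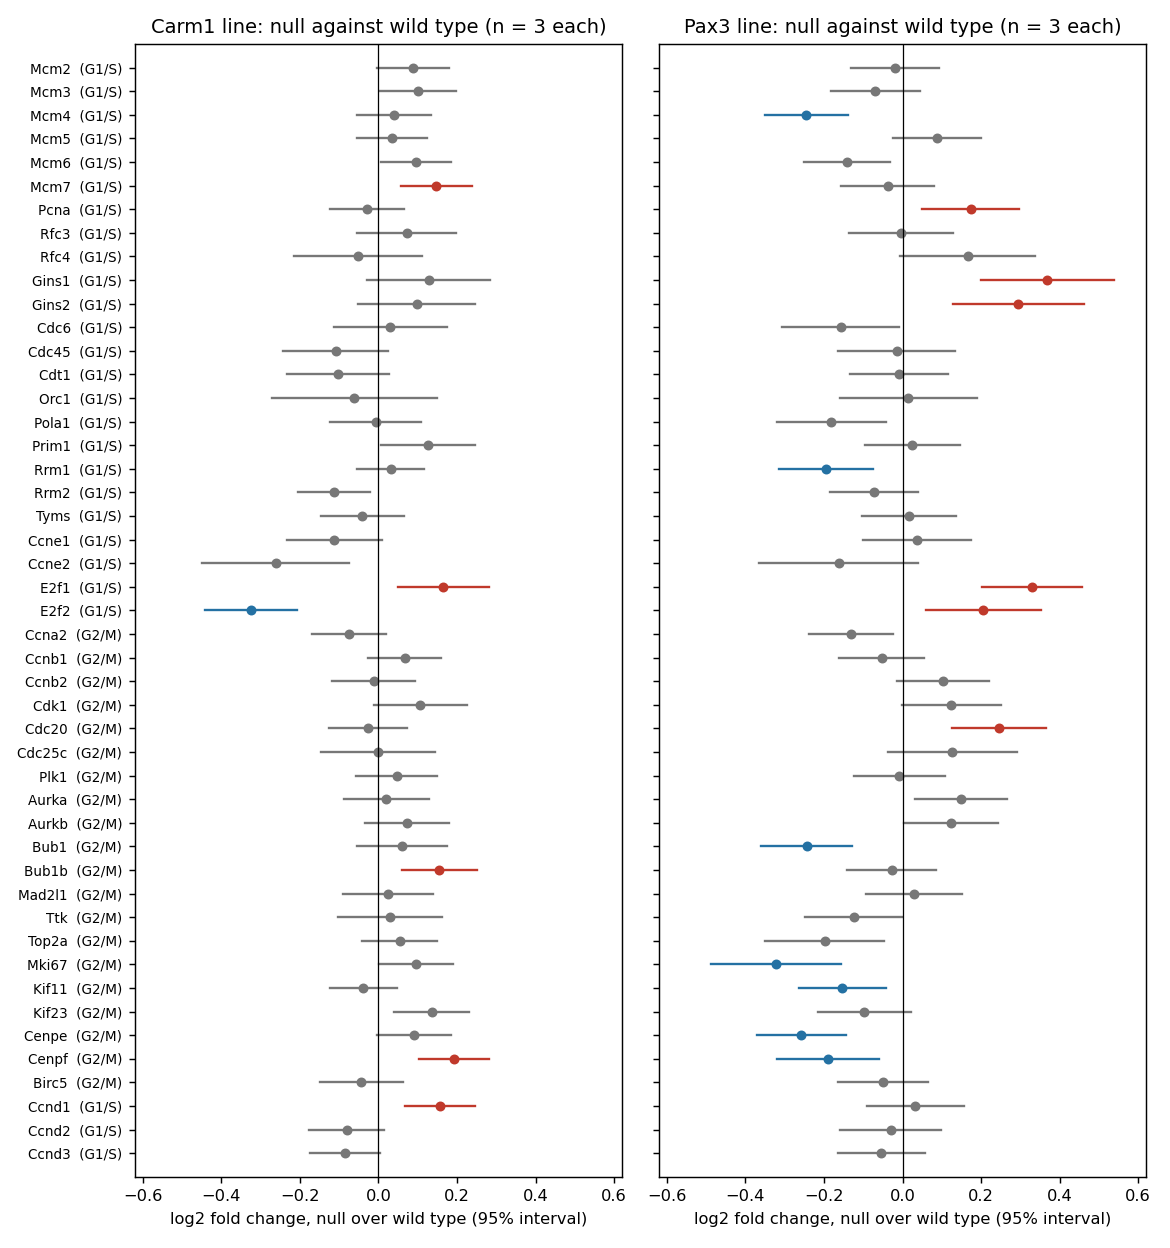
Log2 fold change of each of the 47 members, null over wild type, with its 95% interval (x axis) in the *Carm1* line (left) and the *Pax3* line (right), n = 3 embryos per group. Red marks members higher and blue members lower at an adjusted p under 0.05, grey the others; 6 members are coloured in the *Carm1* line and 13 in the *Pax3* line.

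*E2f2*, which encodes an activating E2F factor (chr4:136172394-136196057, plus strand), held 60.8, 62.7 and 60.3 CPM in wild-type embryos and 45.4, 52.4 and 49.1 CPM in *Carm1* KO/KO embryos. Every null embryo lay below every control. The log2 fold change was −0.32 ± 0.06 (SE, n = 3 per group, adjusted p = 1.5e-04), and the call stood in all 18 alternatives of processing. *E2f1*, the other activating E2F of the list, held 49.6, 49.4 and 49.2 CPM in controls and 58.2, 51.7 and 56.3 CPM in null embryos, a log2 fold change of 0.16 ± 0.06 (adjusted p = 0.049). The groups did not overlap, but the call was lost in 14 of the 18 alternatives, among them DESeq2 with a term for Y-linked counts (adjusted p = 0.32). The cyclin E genes did not pass the test. *Ccne2* had the largest negative estimate among them, −0.26 ± 0.09 (adjusted p = 0.054), with 17.2, 19.5 and 18.9 CPM in controls and 15.4, 16.9 and 14.1 CPM in null embryos.

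Of the D-type cyclins, which partner CDK4 and CDK6, 1 of 3 passed. *Ccnd1* held 268, 293 and 265 CPM in controls and 312, 313 and 297 CPM in null embryos, all 3 null values being above the controls, with a log2 fold change of 0.16 ± 0.04 (adjusted p = 0.013), a call lost in 4 of 18 alternatives. *Ccnd2* held 583, 622 and 562 CPM in controls and 553, 569 and 549 CPM in null embryos, and the groups overlapped (log2 fold change −0.08 ± 0.05, adjusted p = 0.28). *Ccnd3* held 185, 172 and 176 CPM in controls and 166, 166 and 170.3 CPM in null embryos, without overlap but short of the threshold (−0.08 ± 0.04, adjusted p = 0.22).

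All 6 MCM genes, which encode the replicative helicase, had estimates above 0, from 0.03 to 0.15, and 1 passed. This was *Mcm7* (chr5:138164583-138172422, minus strand), with 215, 211 and 198 CPM in controls and 239.6, 233 and 219 CPM in null embryos, every null value lying above the controls (log2 fold change 0.15 ± 0.04, adjusted p = 0.024). The call was lost in 7 of 18 alternatives, with an adjusted p up to 0.22. Exons of *Mcm7* overlap *Ap4m1* and *Cops6* on the opposite strand by 321 and 64 bases. The sliding clamp gene *Pcna* held 210.0, 222 and 236 CPM in controls and 229, 214 and 212 CPM in null embryos, and these ranges overlapped (log2 fold change −0.03 ± 0.05, adjusted p = 0.74). None of the licensing, GINS, primase or nucleotide synthesis genes passed.

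Among G2/M members, *Cenpf* (chr1:189640606-189688086, minus strand), a kinetochore protein, held 170.9, 171.4 and 170.8 CPM in controls and 204, 196 and 186 CPM in null embryos. The null embryos lay above the controls without overlap, and the log2 fold change of 0.19 ± 0.04 (adjusted p = 0.0027) was called in all 18 alternatives. *Bub1b*, which encodes the checkpoint protein BUBR1, held 129.6, 132 and 123 CPM in controls and 146, 145 and 136 CPM in null embryos, again without overlap (0.16 ± 0.05, adjusted p = 0.022), and the call was lost in 5 of 18 alternatives. *Mki67*, the gene of the proliferation marker Ki-67, held 747, 724 and 720 CPM in controls and 796, 799 and 746 CPM in null embryos (0.10 ± 0.05, adjusted p = 0.19), and the groups overlapped. The 18 other G2/M members, *Mki67* included, had estimates from −0.07 to 0.14, and all 18 intervals lay within ±0.3. *Kif23*, a kinesin of cytokinesis, was nearest to the threshold (0.14 ± 0.05, adjusted p = 0.052).

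The null and wild-type libraries did not overlap for 10 of 27 G1/S members (4 higher and 6 lower) and for 3 of 20 G2/M members, all higher, beside 30.0% of all genes tested. Among the 23 G1/S members that did not pass, 22 had 95% intervals within ±0.3, and the lowest bound was −0.45 for *Ccne2*. These counts moved with single embryos. *Carm1* KO/KO replicate 1 had the highest class medians, 0.08 for G1/S and 0.11 for G2/M on the log2 scale relative to the control mean, while replicate 3 lay at −0.04 and −0.0011. Without *Carm1* KO/KO replicate 1, 1 member of each class was called and the G1/S median turned to −0.04. Without *Carm1* KO/KO replicate 2 there was 1 call in G2/M, without wild-type replicate 2 there were 2 in G1/S, and without wild-type replicate 1 there were 5 in G1/S and 3 in G2/M. Calls over all genes were 1224 without null replicate 1, 1381 without null replicate 2, 1349 without wild-type replicate 2 and 2290 without wild-type replicate 1, beside 2106 with all libraries.

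**Figure D2:**
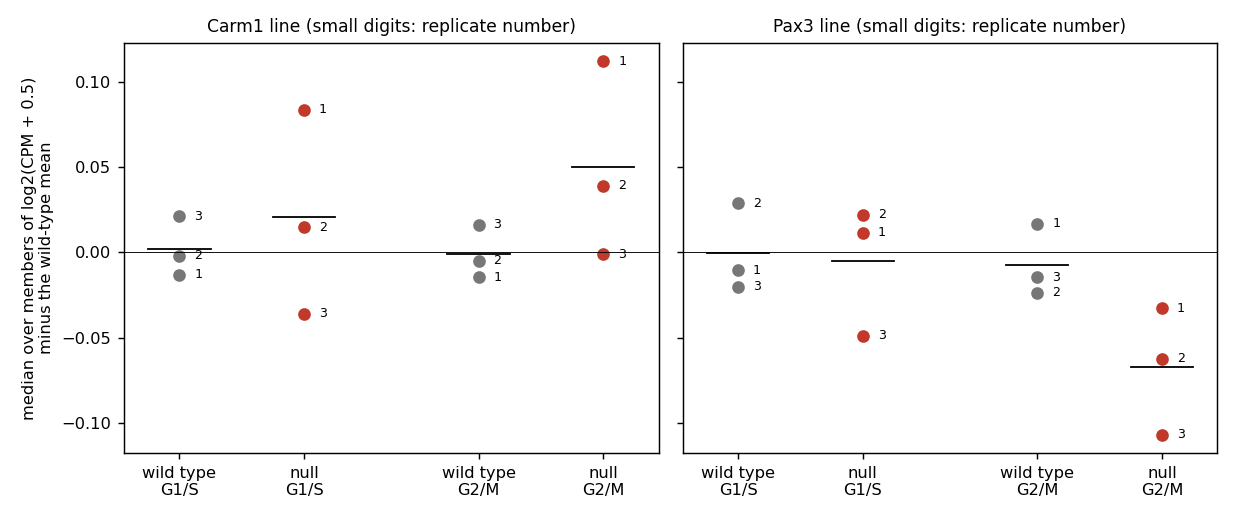
Median over the members of each class of log2(CPM + 0.5) minus the mean of the line's wild-type libraries (y axis), 1 point per library with its replicate number, lines at the mean of 3. In the *Carm1* line the G1/S medians of null embryos, from −0.04 to 0.08, span the controls, and in the *Pax3* line the G2/M medians of null embryos, from −0.11 to −0.03, lie below all 3 controls.

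Markers of cell types moved in the same *Carm1* KO/KO embryos. All 8 neural progenitor markers, such as *Sox2* and *Nes*, rose, and their summed level was 1197 to 1247 CPM in null and 906 to 964 CPM in control embryos. At an adjusted p under 0.05, 7 of 8 hepatocyte markers were called lower (723 to 845 against 1365 to 1669 CPM summed). Of the erythroid markers 6 of 9 were called lower and 1 higher (7674 to 8995 against 5502 to 9590 CPM). The postmitotic neuron list had 4 of 10 called lower (1906 to 1957 against 2052 to 2215 CPM). Skeletal muscle had 4 of 6 called lower (305 to 311 against 406 to 471 CPM) and cardiac muscle 3 of 6 (234 to 253 against 293 to 339 CPM). Estimates were below 0 for all hepatocyte, postmitotic neuron and skeletal muscle markers, and for 7 erythroid and 5 cardiac markers. In whole embryos a different share of cycling cells and a different level of RNA per cell cannot be told apart, and the part of these markers in the members' results was not tested.

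Other genes of the same pathways, on lists written with the members, were counted in the *Carm1* line. Of 42 other replication genes 2 were called higher and none lower (4.76%, median 0.04), beside 13.3% of all genes tested. These were *Orc3*, a subunit of the origin recognition complex (0.23 ± 0.05, adjusted p = 0.0019), and the clamp loader gene *Rfc5* (0.18 ± 0.06, adjusted p = 0.037). Of 53 other genes of G2 and mitosis 5 were called higher and 2 lower (13.2%, median 0.07), a share close to that of all genes. *Racgap1*, which acts in cytokinesis, rose by 0.25 ± 0.05 (adjusted p = 1.9e-04), whereas *Cdc25b*, a phosphatase that activates CDK1, changed by −0.27 ± 0.05 (adjusted p = 2.5e-04) and the kinetochore gene *Zwint* by −0.24 ± 0.05 (adjusted p = 3.7e-04).

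Among 14 genes of the RB, E2F and G1 kinase group 4 were called higher and 1, *Rb1*, lower (35.7%, beside 13.3% of all genes tested). No gene of this list was called lower with DESeq2, with either term for Y-linked counts or in the fit of all 12 libraries. The same held when any single library other than wild-type replicate 1 was left out. *E2f6*, a repressive E2F, held 73.5, 72.0 and 70.3 CPM in controls and 89.6, 85.9 and 90.5 CPM in *Carm1* KO/KO embryos, a log2 fold change of 0.30 ± 0.05 (adjusted p = 4.5e-05). *Cdk4*, the partner of D-type cyclins, rose by 0.20 ± 0.05 (adjusted p = 0.0026), and *Tfdp2*, a dimer partner of E2F proteins, by 0.18 ± 0.05 (adjusted p = 0.0054). Of 6 CDK inhibitor genes tested, *Cdkn1a*, which encodes p21, was lower (−0.23 ± 0.07, adjusted p = 0.031), and *Cdkn2a* was too low to be tested. No gene of this list was called with DESeq2, in the fit of all 12 libraries, or when replicate 2 of either the null or the control group was left out.

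In *Pax3* Sp2H/Sp2H embryos, 6 members rose and 7 fell. Of the G1/S members 5 rose (*E2f1*, *E2f2*, *Gins1*, *Gins2* and *Pcna*) and 2 fell (*Mcm4* and *Rrm1*). Of the G2/M members 1 rose (*Cdc20*) and 5 fell (*Cenpe*, *Bub1*, *Mki67*, *Cenpf* and *Kif11*). The members called amount to 27.7%, beside 24.5% of the 15724 genes tested in that line (14.0% higher and 10.5% lower). Median log2 fold changes were −0.0095 for G1/S and −0.05 for G2/M members, beside −0.0026 for all genes. Null and wild-type libraries did not overlap for 10 G1/S members (6 higher, 4 lower) and 13 G2/M members (5 higher, 8 lower), beside 39.6% of all genes tested.

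These counts changed with transcript length and GC content taken into account. With offsets for both, fitted in each library, no G2/M member stayed called in the *Pax3* line, and *Cdk1* (0.22, adjusted p = 0.013) and *Mad2l1* (0.24, adjusted p = 0.0044) were called higher instead. Length here joins all annotated exons of a gene and can exceed that of any single transcript (4466 nt for *Cdk1*, 8032 nt for *Mad2l1*). Whether these calls depend on that definition was not tested. Over all genes the calls went from 3851, of which 57.1% were higher, to 2473, of which 68.1% were higher. The G2/M median moved from −0.05 to 0.01. Values with these offsets are given beside the called genes of the *Pax3* line.

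Both activating E2F genes were higher in *Pax3* Sp2H/Sp2H embryos. *E2f1* (chr2:154559407-154569892, minus strand) held 50.8, 52.7 and 54.8 CPM in controls and 71.0, 64.0 and 64.1 CPM in null embryos. The groups were well apart, and the log2 fold change of 0.33 ± 0.06 (adjusted p = 2.9e-04) was called in all 18 alternatives, with 0.24 (adjusted p = 0.0061) under the offsets. *E2f2* held 43.5, 40.5 and 40.2 CPM in controls and 48.2, 46.6 and 48.3 CPM in null embryos, without overlap (0.21 ± 0.07, adjusted p = 0.036), but with the offsets it was 0.17 (adjusted p = 0.084).

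*Gins1* and *Gins2*, subunits of the GINS complex that activates the helicase, had the largest increases among G1/S members beside *E2f1*. *Gins1* held 25.3, 26.1 and 29.6 CPM in controls and 33.5, 35.1 and 36.1 CPM in null embryos, a log2 fold change of 0.37 ± 0.08 (adjusted p = 0.0017, and 0.24 with adjusted p = 0.029 under the offsets). With offsets for length alone *Gins1* was at 0.15 and was not called (adjusted p = 0.19). *Gins2* held 28.5, 32.5 and 31.9 CPM in controls and 40.9, 36.3 and 36.8 CPM in null embryos, a log2 fold change of 0.29 ± 0.08 (adjusted p = 0.0090, and 0.31 with adjusted p = 0.0063 under the offsets). Neither gene had overlapping groups. Exons of *Gins2* overlap those of *Gse1* on the opposite strand by 2758 bases, and the strand setting of the counting is not given in the sources used here, so reads of the pair could not be told apart. *Pcna* held 226, 265 and 259.9 CPM in controls and 291, 272 and 284 CPM in null embryos (0.17 ± 0.06, adjusted p = 0.035), without overlap, but it was not called with the offsets (0.12, adjusted p = 0.091). *Pcna* also has 2 annotated pseudogenes, and the treatment of reads with several matches is not given.

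*Mcm4*, a helicase subunit (chr16:15623897-15637400, minus strand), was lower, with 226, 228 and 215 CPM in controls and 195, 191 and 179.8 CPM in null embryos. All null values lay below the controls, and the log2 fold change of −0.24 ± 0.05 (adjusted p = 0.0010) was called in all 18 alternatives (−0.15, adjusted p = 0.022 with the offsets). The other MCM genes ranged from −0.14 to 0.09 and did not pass. *Rrm1*, the large subunit of ribonucleotide reductase, held 345, 318 and 317 CPM in controls and 294, 293 and 269.8 CPM in null embryos (−0.19 ± 0.06, adjusted p = 0.016), without overlap, but was not called with the offsets (−0.08, adjusted p = 0.25). The D-type cyclins did not pass. *Ccnd1* held 310.2, 344 and 328 CPM in controls and 341, 350.1 and 315 CPM in null embryos (0.03 ± 0.06, adjusted p = 0.74, and adjusted p = 0.27 with the offsets). *Ccnd2* held 559, 585 and 573 CPM in controls and 564, 569 and 549 CPM in null embryos (−0.03 ± 0.06, adjusted p = 0.77, and 0.10 with adjusted p = 0.21 under the offsets). *Ccnd3* held 179.7, 204 and 187 CPM in controls and 187, 178 and 184 CPM in null embryos (−0.05 ± 0.05, adjusted p = 0.50). Groups overlapped for all 3 cyclins, and *Ccnd3* was called lower with the offsets (−0.17, adjusted p = 0.0066).

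**Figure D3:**
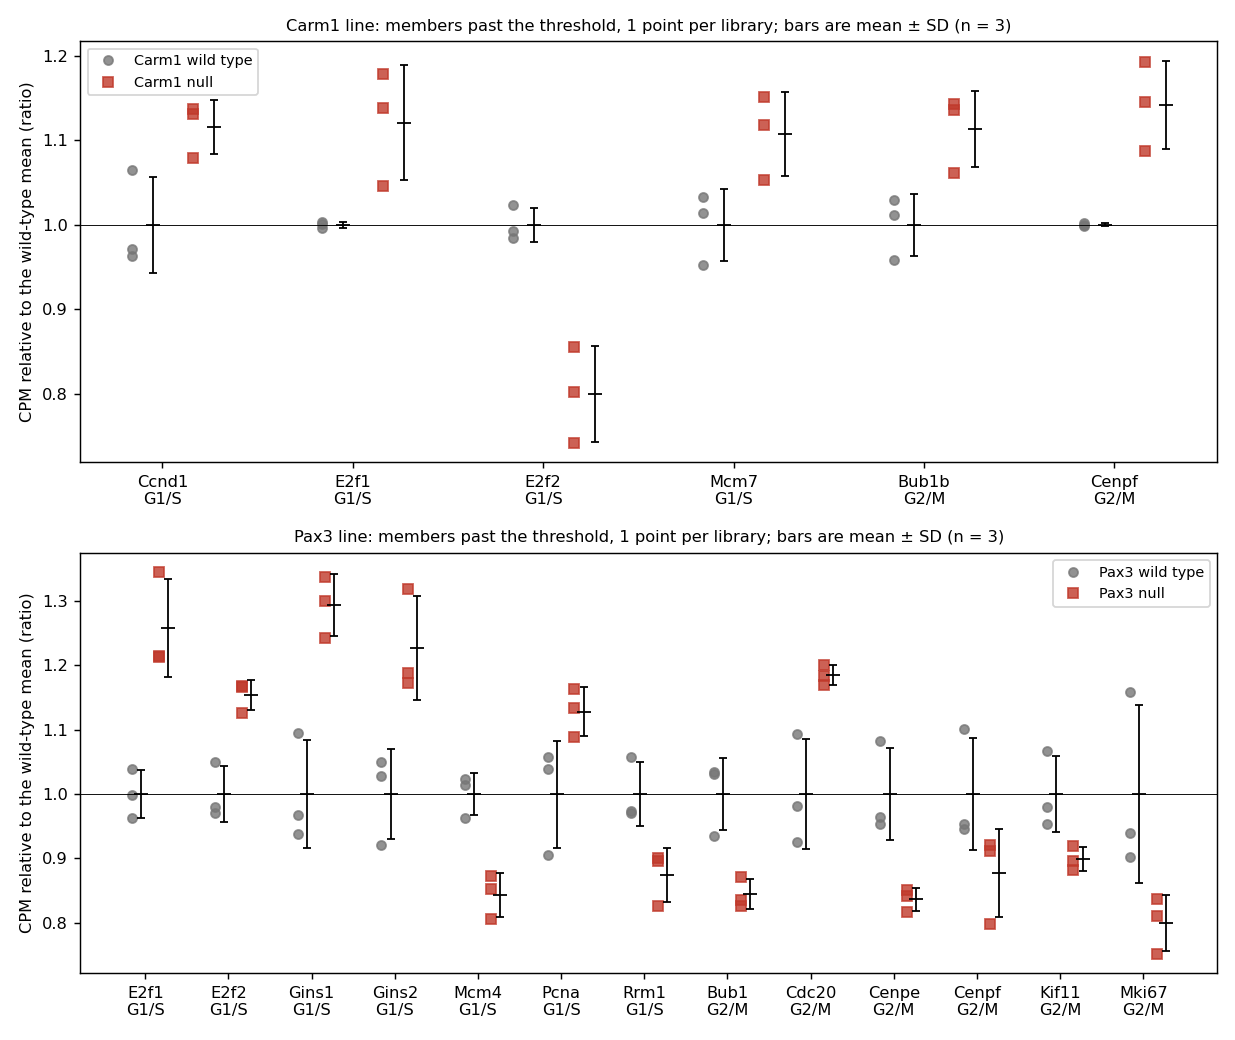
CPM of each member past the threshold relative to the mean of the line's wild-type libraries (y axis, ratio, not starting at 0), 1 point per library with mean and SD (n = 3), in the *Carm1* line (top, 6 members) and the *Pax3* line (bottom, 13 members). Null (red) and wild-type (grey) points do not overlap for any member shown, and *E2f2* lies below the controls in the *Carm1* line and above them in the *Pax3* line.

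The 5 G2/M members that fell were *Cenpe*, *Bub1*, *Mki67*, *Cenpf* and *Kif11*. *Cenpe*, a kinetochore motor (chr3:135212537-135273611, plus strand), held 188, 165 and 167 CPM in controls and 146, 148 and 142 CPM in null embryos (−0.26 ± 0.06, adjusted p = 0.0013). *Bub1*, a checkpoint kinase, held 124, 112 and 124 CPM in controls and 104, 100.3 and 99.1 CPM in null embryos (−0.24 ± 0.06, adjusted p = 0.0022). *Mki67* held 891, 724 and 695 CPM in controls and 624, 645 and 579 CPM in null embryos (−0.32 ± 0.08, adjusted p = 0.0048). Wild-type replicate 1 stood highest for *Cenpe* and *Mki67*, yet all null values lay below all controls for these genes.

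*Cenpf* held 236, 204 and 203 CPM in controls and 195, 197 and 171 CPM in *Pax3* Sp2H/Sp2H embryos (−0.19 ± 0.06, adjusted p = 0.030), again without overlap. *Kif11*, a spindle motor, had the highest adjusted p of the 13 (−0.15 ± 0.05, adjusted p = 0.039), with means of 170 and 153 CPM in control and null embryos. *Cdc20*, the activator of the anaphase-promoting complex, was the single G2/M member that rose, with 113, 134 and 120.1 CPM in controls and 147, 143 and 145 CPM in null embryos (0.24 ± 0.06, adjusted p = 0.0030). All 3 null values lay above the controls for *Cdc20*.

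With the offsets, *Cenpe* was at −0.08 (adjusted p = 0.22), *Bub1* at −0.10 (adjusted p = 0.12), *Mki67* at −0.17 (adjusted p = 0.062), *Cenpf* at −0.01 (adjusted p = 0.89), *Kif11* at −0.0058 (adjusted p = 0.96) and *Cdc20* at 0.11 (adjusted p = 0.13). All 6 thus fell short of the threshold. The exon lengths of the members that fell were 11130 nt for *Cenpf*, 10061 nt for *Mki67*, 7910 nt for *Cenpe*, 4819 nt for *Kif11*, 3997 nt for *Rrm1*, 3589 nt for *Mcm4* and 3421 nt for *Bub1*. Those that rose had 1087 nt for *Gins1*, 1518 nt for *Pcna*, 1793 nt for *Cdc20*, 3154 nt for *E2f1*, 3900 nt for *Gins2* and 4739 nt for *E2f2*. *Mad2l1*, at 8032 nt, did not pass without the offsets. Over the 47 members the log2 fold change in the *Pax3* line correlated with log2 exon length at r = −0.561 (rho = −0.556) and with GC content at r = 0.496, and within the 20 G2/M members with length at r = −0.706. In the *Carm1* line the correlation with length was 0.139 over all members and −0.087 within G1/S members. Within the G2/M members of that line it was 0.444 (rho = 0.423), and 0.523 with the offsets. These are descriptions across genes that share the same libraries, and genes are not independent replicates. Of the 24 members up to the median length of 3200 nt, 4 were called higher and none lower in the *Pax3* line. Of the 23 longer members 2 were called higher and 7 lower. Neither this split nor the correlation was computed over all genes, so the dependence on length cannot be read as particular to the members. Calls over all genes also moved with the offsets, from 3851 to 2473. The cause of this dependence was not tested.

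**Figure D4:**
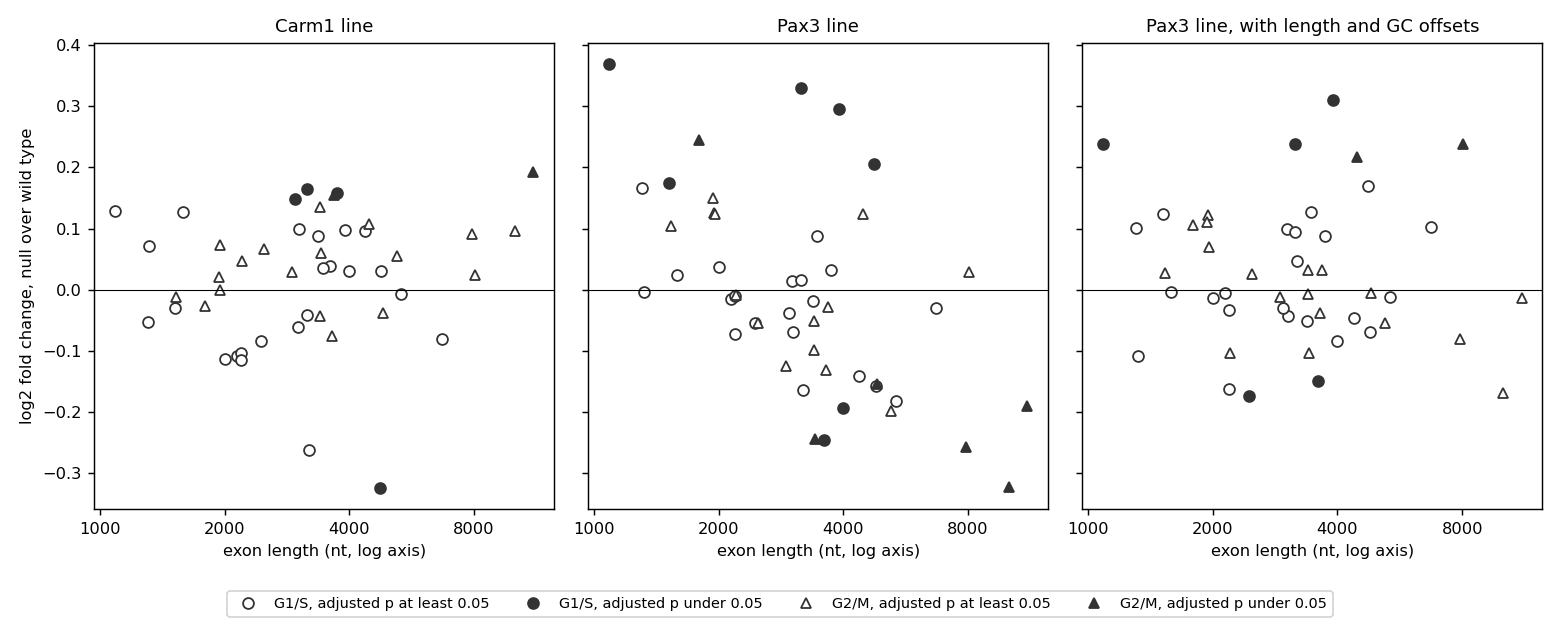
Log2 fold change of the 47 members, null over wild type (y axis), against exon length (x axis, nt, log scale) in the *Carm1* line, the *Pax3* line and the *Pax3* line with offsets for length and GC content. Circles are G1/S and triangles G2/M members, filled where the adjusted p was under 0.05. Over all members of the *Pax3* line the correlation was r = −0.561, and r = −0.1 with the offsets. With the offsets it was −0.234 within G2/M and 0.009 within G1/S members.

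In the *Carm1* line the same offsets kept all 6 calls and added others, making 8 G1/S members (4 higher and 4 lower) and 5 G2/M members, all higher. Added were *Mcm6* (0.10, adjusted p = 0.032), *Rrm2* (−0.11, adjusted p = 0.019), *Ccne2* (−0.24, adjusted p = 0.047), *Ccnd3* (−0.10, adjusted p = 0.032), *Mki67* (0.12, adjusted p = 0.017), *Kif23* (0.13, adjusted p = 0.015) and *Cenpe* (0.11, adjusted p = 0.031). All genes called in that line went from 2106 to 2916.

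The counts in the *Pax3* line also changed when single embryos were left out. Without *Pax3* Sp2H/Sp2H replicate 1 there were 3 G1/S calls, and without replicate 3 there were 4. Calls over all genes were 2565 and 2454 in these fits, beside 3851 with all libraries. Without wild-type replicate 2 there were 8 G1/S calls (4103 over all genes), and without wild-type replicate 3 there were 9 (3365 over all genes). Over the 18 alternatives of processing, the call was lost in 10 for *Kif11*, 7 for *E2f2*, 6 each for *Pcna* and *Rrm1* and 5 for *Cenpf*. It was lost in 2 each for *Cenpe*, *Bub1* and *Mki67*, and in 1 each for *Gins1*, *Gins2* and *Cdc20*. Among members not called, 16 of 20 G1/S and 13 of 14 G2/M intervals lay within ±0.3. The lowest bounds were −0.37 for *Ccne2* and −0.35 for *Top2a*, and *Top2a* was close to the threshold (−0.20 ± 0.07, adjusted p = 0.051).

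Marker lists moved in this line too. At an adjusted p under 0.05, 5 of 6 skeletal muscle markers were called lower (130.1 to 144 CPM summed in null against 241 to 299 CPM in control embryos). Of the postmitotic neuron markers 5 of 10 were called lower (1822 to 1964 against 2067 to 2237 CPM). Called higher were 4 of 8 neural progenitor (1029 to 1165 against 989 to 1067 CPM) and 3 of 6 cardiac markers (263 to 341 against 217 to 254 CPM). Erythroid markers had 1 of 9 called higher (8159 to 10476 against 6257 to 8909.7 CPM), and hepatocyte markers 1 called higher and 1 lower of 8 (830.1 to 918 against 978 to 1187 CPM). Estimates were below 0 for 5 skeletal muscle and all postmitotic neuron markers, and above 0 for 7 neural progenitor and all cardiac markers. With the offsets 5 skeletal muscle and 4 postmitotic neuron markers were called lower, and 3 neural progenitor and 2 cardiac markers higher. No erythroid marker was called with the offsets, and hepatocyte markers had 1 called higher and 1 lower. Their part in the members' results was not tested.

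On the lists of other genes, the *Pax3* line had 20 of 53 other G2/M genes called lower and 2 higher (41.5%, median −0.12), beside 24.5% of all genes tested. With the offsets 2 were called lower and 5 higher, beside 15.7% of all genes. *Spc24*, a subunit of the NDC80 complex, held 40.1, 45.1 and 47.1 CPM in controls and 68.6, 63.1 and 65.4 CPM in *Pax3* Sp2H/Sp2H embryos, a log2 fold change of 0.57 ± 0.07 (adjusted p = 5.0e-07, and 5.8e-07 with the offsets). The spindle gene *Hmmr* was lower (−0.36 ± 0.06, adjusted p = 9.0e-05, and 0.0022 with the offsets). The kinetochore scaffold gene *Knl1*, listed as *Casc5*, was lower as well (−0.34 ± 0.06, adjusted p = 3.4e-04), but not with the offsets (adjusted p = 0.27).

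Of 42 other replication genes 7 were called higher and 6 lower (31%), beside 24.5% of all genes tested. With the offsets 4 were called higher and 2 lower, beside 15.7% of all genes. *Rpa3*, of the single-strand binding protein RPA, rose by 0.49 ± 0.09 (adjusted p = 1.7e-04, and 0.0046 with the offsets). The thymidine kinase gene *Tk1* rose by 0.29 ± 0.07 (adjusted p = 0.0024, and adjusted p = 0.32 with the offsets). *Orc3*, which had risen in the *Carm1* line, was lower here (−0.33 ± 0.06, adjusted p = 1.9e-04, and 6.9e-04 with the offsets). *Rb1*, the retinoblastoma gene, was lower (−0.33 ± 0.07, adjusted p = 6.1e-04, and −0.18 with adjusted p = 0.028 under the offsets). The repressor gene *E2f8* was lower too (−0.22 ± 0.07, adjusted p = 0.026, and adjusted p = 0.12 with the offsets). Of the CDK inhibitors, *Cdkn1a* was lower (−0.34 ± 0.09, adjusted p = 0.0052, and 0.0033 with the offsets) and *Cdkn2d*, which encodes an inhibitor of CDK4 and CDK6, was higher (0.48 ± 0.11, adjusted p = 0.0048, and 0.29 with adjusted p = 0.044 under the offsets).

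Whether the genotype effect differed between the lines was tested as an interaction in 1 fit of all 12 libraries. A difference (the *Carm1* effect minus the *Pax3* effect) was called for 11 of 47 members (23.4%), beside 19.1% of the 16292 genes tested, and for 4 of 27 G1/S and 7 of 20 G2/M members. *E2f2* moved in opposite directions, with log2 fold changes of −0.32 and 0.21 in the *Carm1* and *Pax3* lines, and a difference of −0.52 ± 0.08 (adjusted p = 4.7e-05). *Cenpf* also passed in both lines with opposite signs, 0.19 and −0.19, and differed by 0.39 ± 0.08 (adjusted p = 8.8e-04), although its decrease in the *Pax3* line was lost with the offsets. The *E2f2* increase in the *Pax3* line was itself lost in 7 of 18 alternatives, with an adjusted p up to 0.35 under offsets for GC content alone. The difference of *Cenpe* was 0.36 ± 0.07 (adjusted p = 6.8e-04) and that of *Mki67* 0.43 ± 0.10 (adjusted p = 0.0023). With the offsets 7 of 47 members were called, beside 2700 of 16292 genes (16.6%), and *E2f2* (adjusted p = 3.2e-05), *Cenpf* (0.0066), *Mki67* (0.0038), *Cenpe* (0.010), *Mcm4* (0.014) and *Bub1* (0.045) remained, with *Mcm7* added (0.027).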

How the data were processed

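Per the labels and methods, the authors used STAR to align polyA-selected paired reads (mm10) and featureCounts to count those on exons, and the deposited values are raw counts per gene and library. Versions, strandedness and the handling of multiply matching reads are not given in the sources used here. Libraries were grouped by the labels' genotype (3 per group, 12 in all). Each line was tested alone with edgeR (version 4.0.16, R 4.3.3), TMM, filterByExpr and robust quasi-likelihood, with Benjamini-Hochberg adjustment over all genes tested and a threshold of 0.05. CPM used TMM-scaled library sizes. GENCODE annotation of GRCm38 supplied lengths and coordinates for 21777 symbols as written and 1273 older ones of 23420, while 370 had no match. The length of a gene was that of all its annotated exons joined. Exons of 12 members overlap a gene on the opposite strand. The members and gene lists were chosen with earlier results of these data known. Genes named were all called members (values per library for the 12 with the lowest adjusted p), *Pcna*, *Mki67*, the D-type cyclins, the targeted genes, and up to 3 genes per other list; *Ccne2*, *Kif23* and *Top2a* (near the threshold), *Cdk1*, *Mad2l1*, *Mcm6* and *Rrm2* (called with offsets) and *Rb1* were chosen after their values were seen. Alternatives were DESeq2 (version 1.42.0), other normalizations and filters, a replicate block, Y-linked terms, 1 fit of all libraries, offsets for transcript length and GC content (splines with 5 degrees of freedom), and leaving out each library. The offsets for length alone and for GC content alone were chosen after seeing the data. Same-numbered null and wild-type libraries deviated with correlations of −0.0531 to −0.00472 in the *Carm1* line and 0.000584 to 0.151 in the *Pax3* line. The numbers were not taken as pairs. Libraries with different numbers were not set beside these values, which therefore cannot exclude pairing.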

Additional observations from a re-analysis of the deposited data

Results flagged for a closer look

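Of the 47 members, 11 differed between the lines in their genotype effect by the interaction test of edgeR (adjusted p under 0.05). Given as the log2 effect in the *Carm1* line minus that in the *Pax3* line, the differences were −0.52 for *E2f2*, 0.36 for *Cenpe*, 0.39 for *Cenpf*, 0.43 for *Mki67*, 0.30 for *Mcm4*, 0.32 for *Bub1*, 0.25 for *Mcm6*, −0.26 for *Cdc20*, 0.24 for *Rrm1*, 0.24 for *Kif23* and 0.26 for *Top2a*. The call held in all 20 alternatives for *E2f2*, *Cenpe*, *Cenpf*, *Mki67*, *Mcm4* and *Bub1*. It was lost in 1 alternative for *Mcm6*, in 4 each for *Cdc20* and *Rrm1*, in 5 for *Kif23* and in 9 for *Top2a*. The lines also differ in strain background and colony, which cannot be told apart from the allele in these differences.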

How the results depend on the processing

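With Y-linked counts as a term in DESeq2, 863 genes, 1 G1/S and 1 G2/M member were called in the *Carm1* line. There the edgeR term gave 2 G1/S calls, 1 of them among the original 4, the 12-library fit 2, and the length and GC offsets gave 8 G1/S and 5 G2/M calls. In the *Pax3* line those offsets gave 2473 genes, 2 G2/M calls and a G2/M median of 0.010. Length alone gave 3 G2/M calls, and GC alone medians of 0.024 for G1/S and −0.011 for G2/M. In the interaction the G2/M calls were 4 with both offsets and 4 with GC alone, where G1/S calls were 7. Leaving out each library in turn gave 1224 to 2290 genes, 1 to 5 G1/S and 1 to 3 G2/M calls and G1/S medians of −0.038 to 0.042 in the *Carm1* line. It gave 2454 to 4103 genes, 3 to 9 G1/S and 4 to 7 G2/M calls in the *Pax3* line, and 4 to 8 G2/M calls in the interaction. Estimates near 0 changed sign. *Pcna* in the *Carm1* line was 0.013 with the edgeR term and 0.015 with that of DESeq2, and −0.068 to 0.013 with libraries left out. In the *Pax3* line *Ccnd2* was 0.10, 0.0845 and 0.032 with both offsets, length alone and GC alone, and with libraries left out *Ccnd1* was −0.0049 to 0.076 and *Ccnd3* −0.093 to 0.0027. None of these sign changes passed the threshold. The cause of these changes was not tested.

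With the replicate number as a block, 1787 genes were called in the *Carm1* line (3 G1/S and 2 G2/M members), 4177 in the *Pax3* line (9 and 8) and 3094 in the interaction (5 and 8). The labels do not say whether the numbers pair the embryos, and these counts cannot settle it. With 3 embryos per group, the smallest change called among members without offsets was 0.15 on the log2 scale in both lines.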
